A study of Mus musculus with 8 samples.

Results

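A set of 7 mouse genes was examined here for CpG island DNA that was more bound by an antibody against methylated cytosine in embryonic stem (ES) cells than in liver and spleen: Atf7ip, Rbfox3, Slitrk1, D130017N08Rik, Mfap2, Slc7a14 and Accn1. They were chosen on these same data, for high values on all 4 ES arrays and low values in liver and spleen, so the difference between ES cells and tissues at the islands they were chosen for is a description and carries no test. The genes hold 65 of the 88737 probes on the array. Of these, 61 were used: 60 fall into 12 of the 13183 regions of at least 3 probes, and 1, of Rbfox3, stands alone. A region is a run of probes whose starts lie no more than 500 bp apart. The region of each gene with the largest difference between ES cells and tissues is called its chosen island (7 regions), and the other 5 regions, of Rbfox3, Slc7a14 and Accn1, are called the other islands.

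The study asked about a demethylation pathway for CpG islands in ES cells. Methylated DNA was isolated by mDIP, in which sonicated and denatured genomic DNA, of 300 to 1000 bp per the labels, is bound by an antibody against 5-methylcytidine. Bound DNA (Cy5) and input DNA (Cy3) of a sample were hybridised to 1 CpG island array. The 8 groups are 1 array each: aid-/- ES cells, mbd4-/- ES cells, ES cells with a Gadd45a knockdown, wild-type ES cells, and liver and spleen of C57BL6/J mice aged 6 months that were either aid-/- or mbd4-/-. Every liver and spleen sample thus carried 1 of the same gene losses, and no wild-type tissue was analysed here. Aid is a cytidine deaminase, Mbd4 a glycosylase that removes thymine from mismatches at CpG, and Gadd45a a stress response protein that has been linked to active demethylation. Neither the gene losses nor the knockdown were tested on these arrays, and the labels give no strain, line or clone for the ES cells and no way of making the knockdown. The tissue DNA of aid-/- and of mbd4-/- mice came from different laboratories, per the labels.

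CpG islands are stretches of DNA rich in CG pairs that lie at many promoters and are mostly free of methylation. Methylated islands are best known from imprinted genes, the inactive X chromosome and genes of the germline. Methylation at a promoter island usually goes with a silent gene, whereas an island inside a gene can be methylated while the gene is transcribed.

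Region values are means over probes of the log2 ratio of bound to input DNA, after the median of all probes was subtracted on each array. A value of 0 is therefore the middle of the array and no methylation percentage. In such bulk DNA, methylation in more cells or alleles and denser methylation in each cannot be told apart. The arrays differed in range. The plateau, the 98th percentile of autosomal regions, was 4.46 on the aid-/-, 4.26 on the mbd4-/-, 2.74 on the Gadd45a knockdown and 3.35 on the wild-type ES array. It was 2.25 (aid-/-) and 3.98 (mbd4-/-) in liver, and 2.28 (aid-/-) and 3.63 (mbd4-/-) in spleen. The share of probes with bound signal well above background ran from 70.6% (ES aid-/-) to 96.2% (liver mbd4-/-). Expression markers cannot be read from DNA, and the marker genes looked for had 4 regions, of Sox2, Ikzf1 and Sfpi1, none of them a liver gene.

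The sequences below are, for each chosen island, the probe with the largest difference between ES cells and tissues, because these letters are the DNA on which each island was read. They are in build mm9, as deposited in the array design, 5′ to 3′, with every CG pair in capitals. The sources used here do not give their strand.
Atf7ip, chr6:136467629-136467673: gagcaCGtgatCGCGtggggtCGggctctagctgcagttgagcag
Rbfox3, chr11:118769007-118769061: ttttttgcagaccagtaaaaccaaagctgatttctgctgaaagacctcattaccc
Slitrk1, chr14:109310708-109310754: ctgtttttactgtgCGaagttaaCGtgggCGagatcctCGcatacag
D130017N08Rik, chr5:144519296-144519352: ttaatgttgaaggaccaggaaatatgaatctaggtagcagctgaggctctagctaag
Mfap2, chr4:140566716-140566760: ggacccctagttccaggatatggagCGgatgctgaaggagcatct
Slc7a14, chr3:31108081-31108126: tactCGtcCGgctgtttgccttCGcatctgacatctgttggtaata
Accn1, chr11:81782397-81782441: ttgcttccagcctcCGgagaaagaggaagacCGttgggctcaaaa
These 7 probes hold 0 to 4 CG pairs. Those of Rbfox3 and D130017N08Rik hold none. The captured fragments are longer than a probe, so a probe also reports on CG pairs beside it. Over all probes used, the chosen island of D130017N08Rik holds 1 CG pair in 4 probes, that of Rbfox3 holds 4 in 4 probes, and that of Atf7ip holds 14 in 5 probes.

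Atf7ip encodes a protein that binds the histone methyltransferase SETDB1 and helps it to silence chromatin. Its island on chromosome 6 (136467067 to 136467757, 5 probes) stood at 3.13 on the aid-/-, 4.08 on the mbd4-/-, 3.49 on the Gadd45a knockdown and 2.96 on the wild-type ES array. It stood at 0.023 (aid-/-) and 0.00039 (mbd4-/-) in liver, and at 0.035 (aid-/-) and −0.077 (mbd4-/-) in spleen. By mean over probes, all 4 tissue arrays lay at the array middle, and every ES array lay far above them. The single probes were more spread out, with tissue means from −0.82 to 1.03 and ES means from 3.11 to 3.71. The ES mean was 3.42 ± 0.50 and the tissue mean −0.0047 ± 0.051 (SD, n = 4 arrays each), a difference of 3.42. Its gap, the lowest ES array minus the highest tissue array, was 2.93 and ranked 1 of 13183 regions.

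Rbfox3 encodes a neuronal splicing factor known as the marker NeuN. Its chosen island on chromosome 11 (118768579 to 118769061, 4 probes) stood at 3.95 on the aid-/-, 3.65 on the mbd4-/-, 2.55 on the Gadd45a knockdown and 3.29 on the wild-type ES array. It stood at 0.35 (aid-/-) and 0.033 (mbd4-/-) in liver, and at 0.39 (aid-/-) and 0.41 (mbd4-/-) in spleen. The groups did not overlap, and the gap of 2.14 ranked 2. The ES mean was 3.36 ± 0.60 and the tissue mean 0.30 ± 0.18 (SD, n = 4 arrays each), a difference of 3.06.

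D130017N08Rik is a RIKEN cDNA name, and no role is given for it here. Its island on chromosome 5 (144518976 to 144519352, 4 probes) stood at 4.24 on the aid-/-, 3.68 on the mbd4-/-, 2.59 on the Gadd45a knockdown and 3.71 on the wild-type ES array, against 0.84 (aid-/-) and 1.01 (mbd4-/-) in liver and 0.91 (aid-/-) and 1.02 (mbd4-/-) in spleen. The tissue arrays lay close together and well above the array middle, between the 86.6th (mbd4-/- spleen) and the 89.3rd percentile of regions (aid-/- liver). This island was thus low in tissues only relative to ES cells. The ES mean was 3.55 ± 0.69 and the tissue mean 0.94 ± 0.088 (SD, n = 4 arrays each), a difference of 2.61, and the gap of 1.57 ranked 5.

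Slitrk1 encodes a transmembrane protein of neurons that shapes neurites and synapses. Its island on chromosome 14 (109310483 to 109310754, 3 probes) stood at 3.54 on the aid-/-, 2.69 on the mbd4-/-, 2.11 on the Gadd45a knockdown and 2.28 on the wild-type ES array. It stood at 0.092 (aid-/-) and −0.72 (mbd4-/-) in liver, and at 0.96 (aid-/-) and −0.26 (mbd4-/-) in spleen. The 4 tissue arrays were the most spread out of the 7 chosen islands, with an SD of 0.71 around a mean of 0.017, against an ES mean of 2.66 ± 0.64 (SD, n = 4 arrays). The difference was 2.64 and the gap of 1.15 ranked 9.

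Mfap2 encodes a glycoprotein of the extracellular microfibrils that carry elastic fibres. Its island on chromosome 4 (140566398 to 140566760, 3 probes) stood at 3.29 on the aid-/-, 3.50 on the mbd4-/-, 1.91 on the Gadd45a knockdown and 3.02 on the wild-type ES array, against 0.72 (aid-/-) and 0.27 (mbd4-/-) in liver and 0.42 (aid-/-) and 0.21 (mbd4-/-) in spleen. The Gadd45a knockdown array was the low one among the ES arrays, and no array overlapped the other group. The ES mean was 2.93 ± 0.71 and the tissue mean 0.41 ± 0.23 (SD, n = 4 arrays each), a difference of 2.53 with a gap of 1.19, which ranked 8.

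Slc7a14 belongs to the Slc7 family of amino acid transporters. Its chosen island on chromosome 3 (31107926 to 31108351, 4 probes) stood at 3.32 on the aid-/-, 3.21 on the mbd4-/-, 2.04 on the Gadd45a knockdown and 2.47 on the wild-type ES array. It stood at 0.54 (aid-/-) and 0.28 (mbd4-/-) in liver, and at 1.31 (aid-/-) and 1.15 (mbd4-/-) in spleen. Both spleen arrays lay above both liver arrays and below every ES array. The ES mean was 2.76 ± 0.61 and the tissue mean 0.82 ± 0.49 (SD, n = 4 arrays each), a difference of 1.94, and the gap of 0.72 ranked 24.

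Accn1 encodes an acid-sensing ion channel of the degenerin and ENaC family. Its current symbol in the RefSeq gene table is Asic2. Its chosen island on chromosome 11 (81782021 to 81782441, 3 probes used) stood at 2.18 on the aid-/-, 1.49 on the mbd4-/-, 1.73 on the Gadd45a knockdown and 1.72 on the wild-type ES array, against 0.16 (aid-/-) and 0.22 (mbd4-/-) in liver and 0.22 (aid-/-) and 0.71 (mbd4-/-) in spleen. These were the lowest ES values of the 7 chosen islands. The ES mean was 1.78 ± 0.29 and the tissue mean 0.33 ± 0.26 (SD, n = 4 arrays each), a difference of 1.46, and the gap of 0.78 ranked 17. A further probe inside this island (81782267 to 81782312), left out for dim input, averaged 0.95 in ES cells and 0.55 in tissues, and the groups overlapped. With dim probes kept, the difference was 1.21. The probe left out of the Atf7ip island averaged 4.16 in ES cells and −0.45 in tissues.

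**Figure D1:**
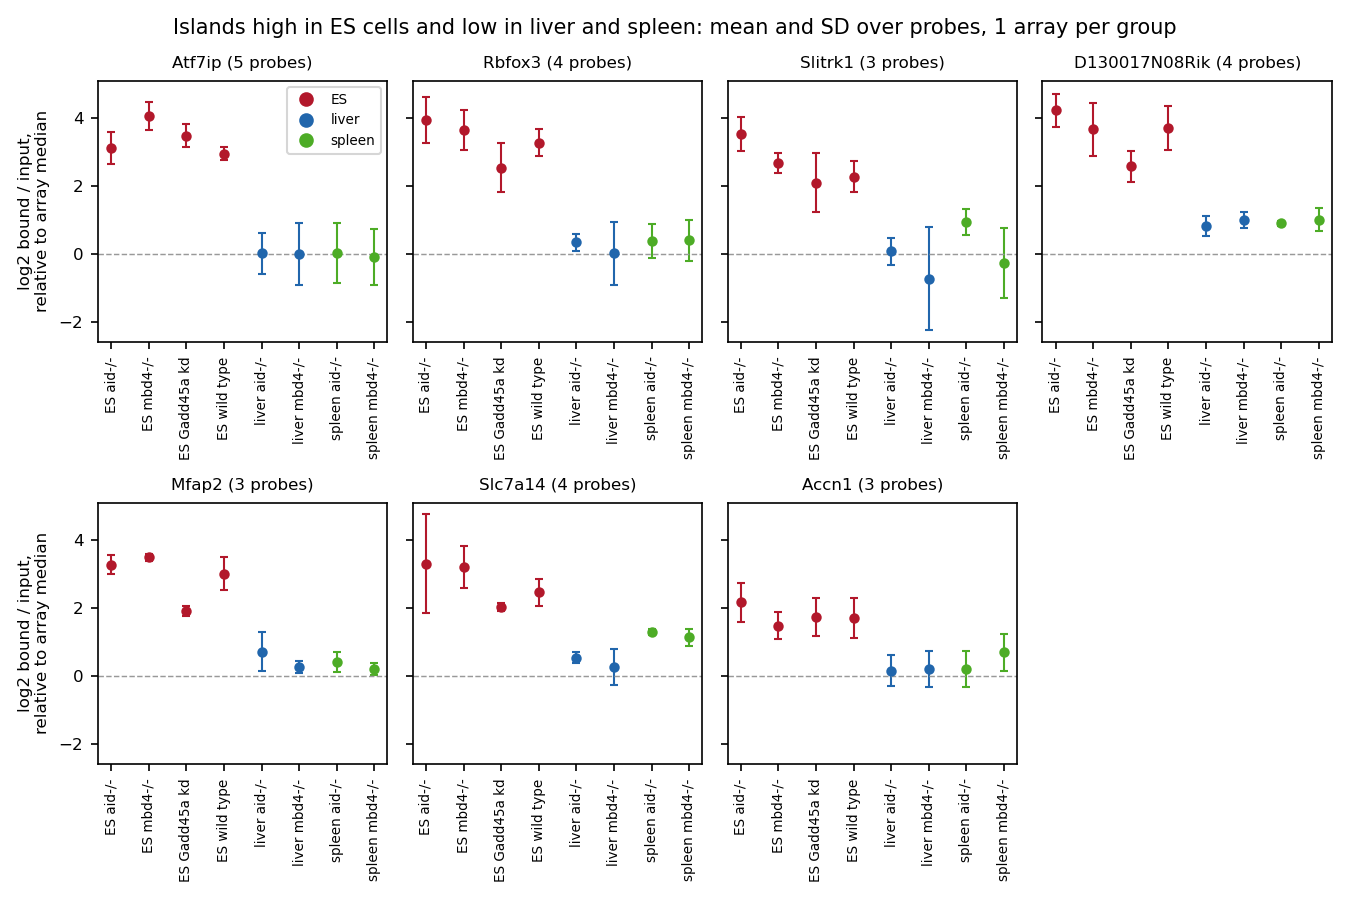
Value of the 7 chosen islands on each of the 8 arrays (log2 bound over input, relative to the array median), with points for the mean and bars for the SD over the probes of the island. The 4 ES arrays lie above the 4 liver and spleen arrays in every panel, with the smallest gap at Slc7a14 (0.72) and the largest at Atf7ip (2.93).

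All 7 chosen islands had every ES array above every tissue array, and for 5 of them the gap was at least 1. Over all regions 529 (4.01%) had no overlap in this direction and 11 (0.0834%) had a gap of at least 1. These counts, and the count by probe that follows, rest on the values that chose the genes, so nothing is read from them. Probe by probe, 25 of the 26 probes used in the chosen islands had all ES arrays above all tissue arrays, against 4.8% of all 81105 probes. The exception was the last probe of the Slc7a14 island, whose difference of 0.94 was the smallest of the 26. On the ES arrays the chosen islands lay between the 88.8th percentile of regions (Accn1, mbd4-/-) and the 98.9th (D130017N08Rik, wild type). They were thus in the upper part of every ES array, while the tissue values ran from the 10.8th percentile (Slitrk1, mbd4-/- liver) to the 90.9th (Slc7a14, aid-/- spleen). By median over the 7 islands the tissue percentile was 79.8 (aid-/-) and 72.1 (mbd4-/-) in liver, and 79.0 (aid-/-) and 78.7 (mbd4-/-) in spleen. In tissues most chosen islands thus lay above most regions of the array, and were low relative to ES cells. On the tissue array with the fewest, 3 of the 5 Atf7ip probes used had bound signal well above background. This was 2 of 3 at Slitrk1 and 2 of 3 at Accn1, so some of their tissue values lie near the floor. At the other chosen islands every probe used was well above background on all arrays.

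**Figure D2:**
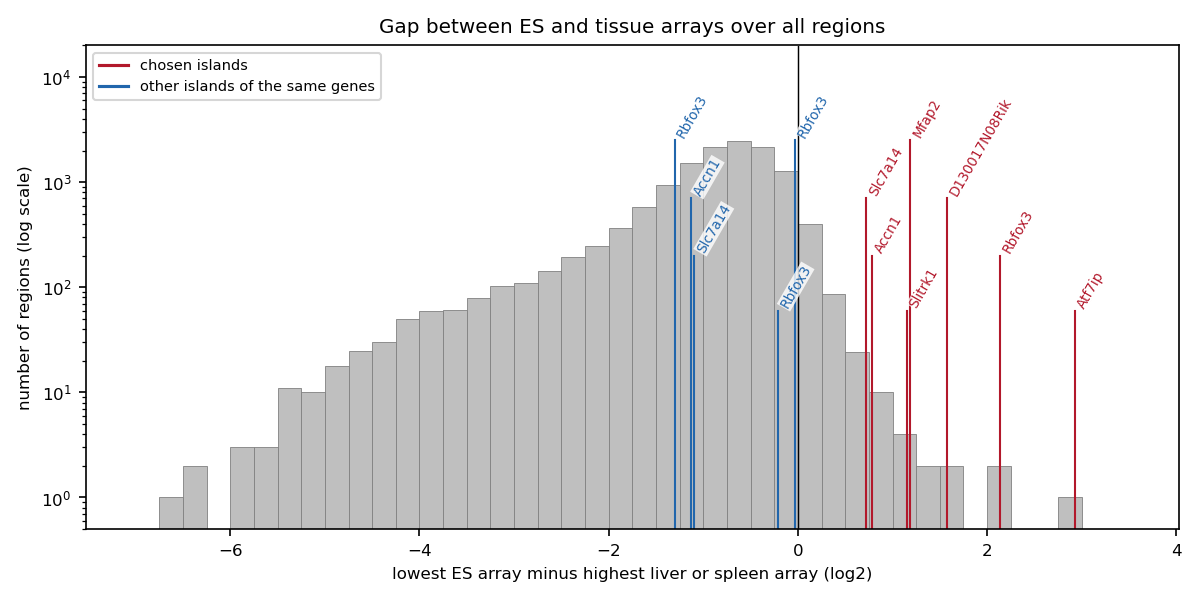
Number of regions (log scale) by the gap between the lowest ES array and the highest liver or spleen array (log2), over 13183 regions, with lines at the 7 chosen and the 5 other islands. The chosen islands run from 0.72 to 2.93, and the 5 other islands of the same genes lie between −1.30 and −0.026.

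The scan days were unevenly spread over the groups. The aid-/- and wild-type ES arrays and both aid-/- tissue arrays were scanned on 1 day, both mbd4-/- tissues on another, and the mbd4-/- and Gadd45a knockdown ES arrays on a day each and with an older scanner software. Within the first day the differences between ES cells and tissues were 3.02 for Atf7ip, 3.25 for Rbfox3, 3.10 for D130017N08Rik, 2.39 for Slitrk1, 2.58 for Mfap2, 1.97 for Slc7a14 and 1.77 for Accn1. Aid-/- ES cells and aid-/- liver shared a slide, and between these 2 arrays the differences ran from 2.03 (Accn1) to 3.60 (Rbfox3). Since the genes were chosen for this difference on all arrays, its direction within a day or slide is no further evidence. Split by channel, the median difference of the 7 islands was 2.79 in the bound signal and 0.31 in the input signal, against 0.066 and 0.047 over all regions. The input difference ran from 0.056 (Slitrk1) to 0.51 (Rbfox3). Both signals make up the ratio that chose the genes, so the split is a description too.

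Among the ES arrays, aid-/- was the highest at 5 of the 7 chosen islands and the Gadd45a knockdown the lowest at 5. The mbd4-/- array was the highest at Atf7ip and Mfap2. By median over the 7 islands the order was mbd4-/- (3.50), aid-/- (3.32), wild type (2.96) and the knockdown (2.11), and by plateau aid-/- came before mbd4-/-. Set against the plateaus, the median chosen island stood at 74.5% of the plateau on the aid-/-, 82.2% on the mbd4-/-, 77.0% on the Gadd45a knockdown and 88.5% on the wild-type ES array. In tissues this median ran from 5.50% (mbd4-/- liver) to 18.6% (aid-/- spleen). The highest tissue value, 57.6% (Slc7a14, aid-/- spleen), exceeded the lowest ES value, 35.0% (Accn1, mbd4-/-). Within each island, every ES array remained above every tissue array on this scale. The part of the plateau in these values was not tested. With 1 array per group, a region was listed as different from wild type where it differed by at least 1 and at least 75% of its probes differed the same way, and these differences were not tested.

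By that rule Slitrk1 was higher in aid-/- ES cells (3.54, against 2.28 in wild type) and Atf7ip was higher in mbd4-/- ES cells (4.08, against 2.96 in wild type). D130017N08Rik was lower in the Gadd45a knockdown (2.59, against 3.71 in wild type), and so was Mfap2 (1.91, against 3.02 in wild type). The 7 chosen islands thus gave 1 higher in aid-/-, 1 higher in mbd4-/- and 2 lower in the knockdown. Against wild-type ES cells, the shares of the 13183 regions listed as higher were 8.7% in aid-/-, 7.64% in mbd4-/- and 6.46% in the knockdown. The shares listed as lower were 2.21% in aid-/-, 2.59% in mbd4-/- and 6.46% in the knockdown. With every array scaled to 1 plateau, none of these 4 differences was listed, and Atf7ip was listed as higher in the Gadd45a knockdown, by 1.31. In the deposited value table the knockdown remained lower at D130017N08Rik (−1.44) and Mfap2 (−1.72), and the chosen island of Rbfox3 was listed as lower too (−2.03).

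Aid-/- and mbd4-/- were compared over ES cells, liver and spleen, a contrast that the choice of genes did not use. No member region passed limma's test at an adjusted p under 0.05, and none of all 13183 regions did (0%; 10.7% had an unadjusted p under 0.05, as did 2 of the 12 member regions). The largest difference of the 7 chosen islands was that of Slitrk1, the neuronal membrane protein gene. Slitrk1 stood at 3.54, 0.092 and 0.96 in aid-/- ES cells, liver and spleen, against 2.69, −0.72 and −0.26 in mbd4-/- ES cells, liver and spleen. It was higher in aid-/- in 3 of 3 tissues, by a mean of 0.96 ± 0.17 (SE; limma adjusted p = 0.464). Without either of the 2 ES arrays, which leaves 4 tissue arrays to make the contrast, the difference was 1.01 and the adjusted p 0.015, and 1072 of all regions then passed. In those tissues genotype, scan day and source laboratory cannot be told apart. The difference between aid-/- and mbd4-/- was also tested for being unlike in ES cells and tissues, and no member region passed limma's interaction test (lowest adjusted p = 0.187), where 545 of all regions (4.13%) did.

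Liver and spleen were compared over 4 arrays with the genotype as a block. None of the 12 member regions passed (limma, adjusted p under 0.05), nor did any other region (0%; 7.4% of all regions and 2 of the 12 had an unadjusted p under 0.05). Slc7a14 had the largest difference of the chosen islands, at 0.54 (aid-/-) and 0.28 (mbd4-/-) in liver, against 1.31 (aid-/-) and 1.15 (mbd4-/-) in spleen. Liver was lower in 2 of 2 pairs, by −0.82 ± 0.21 (liver minus spleen, SE; limma adjusted p = 0.171). Slitrk1 was also lower in liver in both pairs, by −0.66 ± 0.22 (SE; limma adjusted p = 0.35). Neither difference passed the test at this number of arrays.

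The other islands of these genes were not what the genes were chosen for, and their difference between ES cells and tissues was tested. By definition each had a smaller difference than the chosen island of its gene. The test is therefore not independent of the choice and leans towards no call. None of the 5 passed (limma over all 13183 regions, of which 0.0683% passed as higher and 0.174% as lower in ES cells), and 2 of the 5 had an unadjusted p under 0.05, as 15.9% of all regions did. Of their 34 probes, 1 had all ES arrays above all tissue arrays, against 4.8% of all probes.

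At Rbfox3 the values differ within a short stretch. The chosen island is followed, after 745 bases without a probe, by an island of 9 probes (118769807 to 118771206) whose mean was near the array middle in every sample. It stood at 0.27 on the aid-/-, 0.47 on the mbd4-/-, 0.18 on the Gadd45a knockdown and 0.20 on the wild-type ES array, against 0.10 (aid-/-) and −0.33 (mbd4-/-) in liver and 0.20 (aid-/-) and 0.17 (mbd4-/-) in spleen. ES cells and tissues overlapped, with a difference of 0.24 ± 0.18 (SE; limma adjusted p = 0.551). The main step lies between the last probe of the chosen island, which averaged 3.86 in ES cells and −0.44 in tissues, and the first of the next, at 1.08 in ES cells and −0.038 in tissues. The probes after it, starting at 118769905 and 118769976, averaged 1.09 and 0.51 in ES cells, against 0.72 and 0.016 in tissues. ES means thus stayed above tissue means over the start of the next island, which its mean over probes does not show. Fragments of 300 to 1000 bp can reach from the chosen island to the next, so the position of the step is not resolved further.

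**Figure D3:**
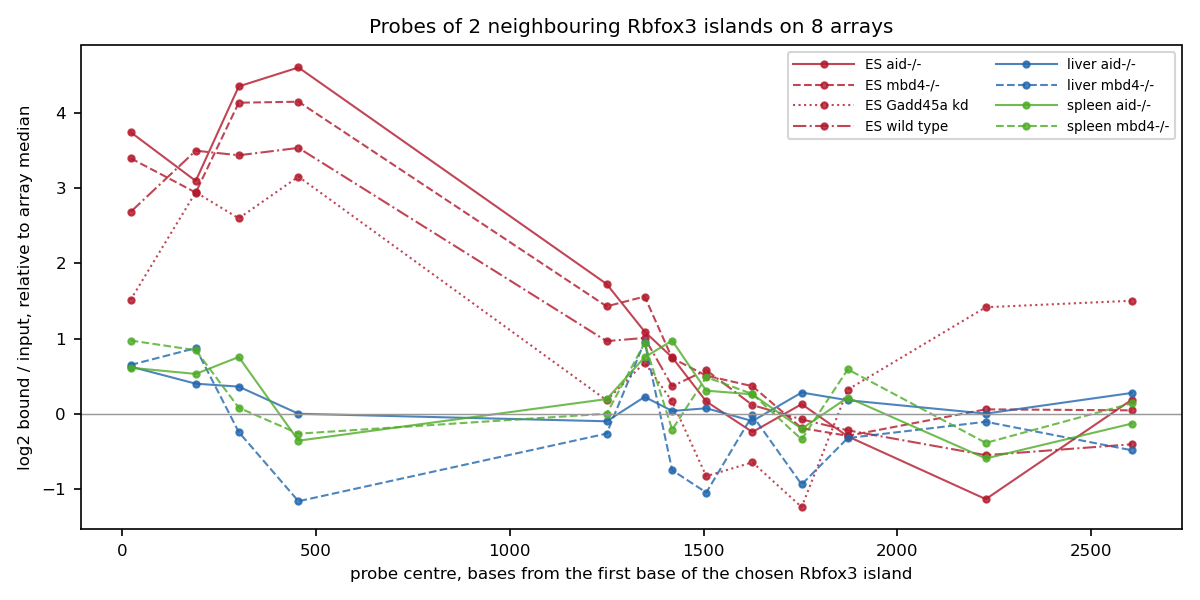
Values of the single probes of the chosen Rbfox3 island (4 probes) and of the next island (9 probes) on 8 arrays, against the distance of the probe centre from the first base of the chosen island. The ES arrays lie between 1.52 and 4.60 over the first 4 probes, and the lines of ES cells and tissues cross beyond them.

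On the other side, after 15546 bases, lies another Rbfox3 island (118752569 to 118753032, 5 probes) that was high in every sample. It stood at 3.81 on the aid-/-, 3.93 on the mbd4-/-, 4.19 on the Gadd45a knockdown and 2.80 on the wild-type ES array, against 1.89 (aid-/-) and 3.01 (mbd4-/-) in liver and 2.14 (aid-/-) and 2.50 (mbd4-/-) in spleen. The wild-type ES array lay below the highest tissue array, mbd4-/- liver, so the groups overlapped. ES cells were above tissues by 1.30 ± 0.36 (SE; limma adjusted p = 0.163). With genotype added to the fit the difference was 1.49 (limma adjusted p = 0.037). Wild type and the Gadd45a knockdown occur in ES cells alone, so that estimate leaves their arrays out and rests on aid-/- and mbd4-/-. The same fit called 652 of all regions higher and 517 lower in ES cells. All 3 other ES arrays were listed as higher than wild type at this island, by 1.02 in aid-/-, 1.13 in mbd4-/- and 1.39 in the Gadd45a knockdown. With 1 plateau for all arrays the Gadd45a knockdown alone was still listed, and in the deposited value table none was. The last Rbfox3 island (118430297 to 118431219, 5 probes), 321.3 kb further off, ran from −0.80 to 0.56 on the ES arrays and from 0.10 to 0.51 in tissues, with a difference of −0.46 ± 0.29 (SE; limma adjusted p = 0.469). A single Rbfox3 probe beside it, too few for a region, stood between −1.92 and −0.76 on the ES arrays and between −1.07 and −0.056 in tissues.

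The first probe beyond the step and the highest probe of the island high in every sample are shown for comparison with the Rbfox3 probe printed above, in mm9 and with CG pairs in capitals.
Rbfox3, first probe of the next island, chr11:118769807-118769851: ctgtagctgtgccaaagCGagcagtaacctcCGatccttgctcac
Rbfox3, island high in every sample, chr11:118752801-118752851: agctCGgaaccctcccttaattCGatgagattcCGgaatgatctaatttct
The Rbfox3 probe printed above holds no CG pair and averaged 3.86 in ES cells, whereas the first probe of the next island holds 2 and averaged 1.08. The probe from the island high in every sample holds 3, and averaged 3.99 in ES cells and 2.85 in tissues.

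**Figure D4:**
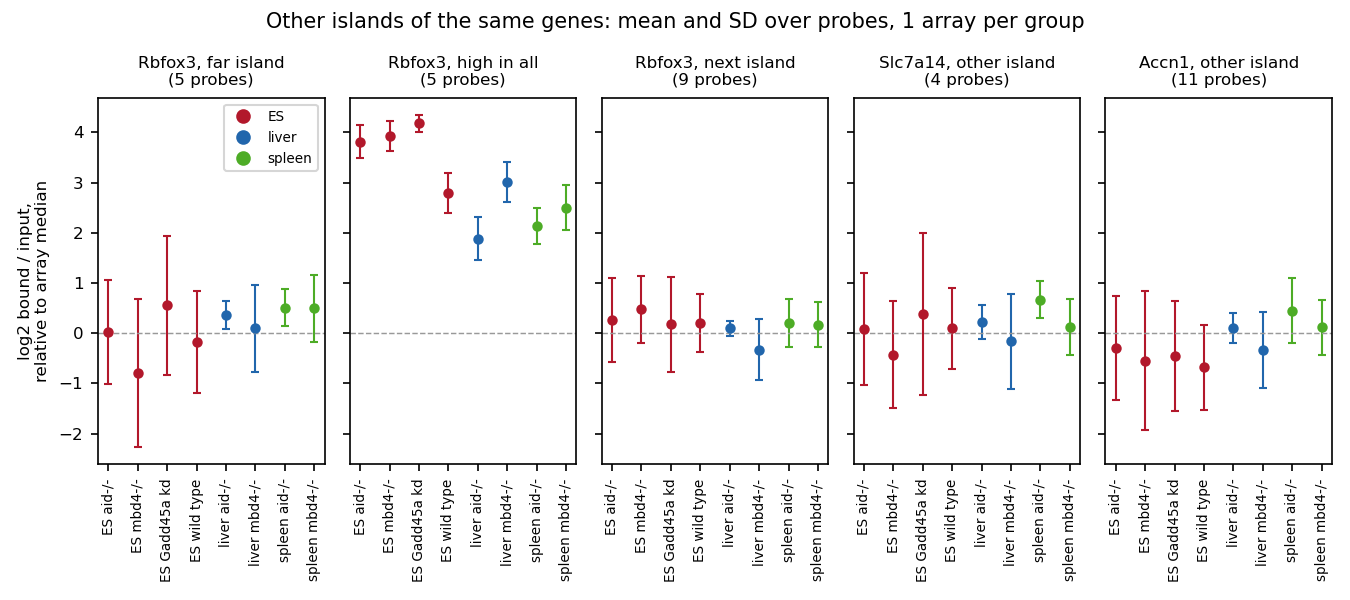
Value of the 5 other islands of Rbfox3, Slc7a14 and Accn1 on each of the 8 arrays (log2 bound over input, relative to the array median), with points for the mean and bars for the SD over probes. ES cells and tissues overlap in every panel, and 1 Rbfox3 island is high on all 8 arrays, from 1.89 to 4.19.

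Slc7a14 has a second island 99990 bases away (31208342 to 31209022, 4 probes). It stood at 0.092 on the aid-/-, −0.43 on the mbd4-/-, 0.38 on the Gadd45a knockdown and 0.098 on the wild-type ES array, against 0.22 (aid-/-) and −0.16 (mbd4-/-) in liver and 0.67 (aid-/-) and 0.12 (mbd4-/-) in spleen. The groups overlapped, with a difference of −0.17 ± 0.24 (SE; limma adjusted p = 0.765). In the other direction, 58781 bases from the chosen island, lies an island of Cldn11, a tight junction protein of myelin and testis. Cldn11 (31048745 to 31049144, 5 probes) stood at 3.07 on the aid-/-, 3.52 on the mbd4-/-, 1.77 on the Gadd45a knockdown and 1.93 on the wild-type ES array, against 0.47 (aid-/-) and 0.40 (mbd4-/-) in liver and 0.69 (aid-/-) and 0.59 (mbd4-/-) in spleen. It was 1 of 12 regions within 100 kb of a chosen island, and the only one of the 12 with no overlap and ES cells above tissues. Over all regions 4.01% had this, so nothing is read from the count. Cldn11 was picked out after its values were seen, and its difference of 2.04 did not pass (limma adjusted p = 0.076). The other 11 differed by −0.73 to 1.30 between ES cells and tissues. Atf7ip, Slitrk1 and Accn1 had no other region within that distance.

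Accn1 has a second island of 11 probes 814.9 kb away (80965329 to 80967132). It stood at −0.29 on the aid-/-, −0.55 on the mbd4-/-, −0.45 on the Gadd45a knockdown and −0.68 on the wild-type ES array, against 0.10 (aid-/-) and −0.34 (mbd4-/-) in liver and 0.45 (aid-/-) and 0.12 (mbd4-/-) in spleen. The direction was opposite to that of the chosen island, and aid-/- ES cells overlapped mbd4-/- liver. The difference was −0.58 ± 0.20 (SE; limma adjusted p = 0.227).

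Where the islands lie relative to transcription starts was read by matching probe sequences to RefSeq promoter windows (250 bases before to 50 after a start, GRCm38.p6), since no mm9 annotation was used here. All 7 genes have such a window, and 9 member probes, of 4 genes, matched one of their own gene. A probe of the Atf7ip island covered bases −16 to 28 around the start and another lay at −179 to −123. Both matched probes of D130017N08Rik lay before the start, at −247 to −203 and −165 to −121, and 1 Mfap2 probe lay at −198 to −151. The chosen islands of Rbfox3, Slitrk1 and Slc7a14 matched no window of their own gene.

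Accn1 has a window at each of its islands, so both of its promoters were read. At the start near the chosen island, 1 probe at −177 to −123 averaged 2.28 in ES cells and 0.76 in tissues. At the other start, 3 probes between −214 and 19 averaged −0.64 in ES cells and −0.21 in tissues. The windows are printed because they show the DNA of a promoter that stood above the array middle in ES cells beside that of 1 that stood below it, and of the Atf7ip and D130017N08Rik promoters, which stood above it (GRCm38.p6, RefSeq, CG pairs in capitals).
Asic2 promoter near the chosen island, chr11:81968347-81968646, minus strand: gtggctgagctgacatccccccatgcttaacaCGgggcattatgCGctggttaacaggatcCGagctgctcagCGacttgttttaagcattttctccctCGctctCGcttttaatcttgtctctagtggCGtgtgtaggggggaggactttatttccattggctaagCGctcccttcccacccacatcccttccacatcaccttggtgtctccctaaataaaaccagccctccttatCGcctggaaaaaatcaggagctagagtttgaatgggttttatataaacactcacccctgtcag
Asic2 promoter at the other island, chr11:81152854-81153153, minus strand: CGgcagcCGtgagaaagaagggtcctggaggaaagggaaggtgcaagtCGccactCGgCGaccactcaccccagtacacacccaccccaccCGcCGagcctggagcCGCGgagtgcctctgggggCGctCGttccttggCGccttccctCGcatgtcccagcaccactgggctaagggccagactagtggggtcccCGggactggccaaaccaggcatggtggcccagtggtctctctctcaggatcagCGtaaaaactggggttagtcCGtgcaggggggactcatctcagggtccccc
Atf7ip promoter, chr6:136518601-136518900, plus strand: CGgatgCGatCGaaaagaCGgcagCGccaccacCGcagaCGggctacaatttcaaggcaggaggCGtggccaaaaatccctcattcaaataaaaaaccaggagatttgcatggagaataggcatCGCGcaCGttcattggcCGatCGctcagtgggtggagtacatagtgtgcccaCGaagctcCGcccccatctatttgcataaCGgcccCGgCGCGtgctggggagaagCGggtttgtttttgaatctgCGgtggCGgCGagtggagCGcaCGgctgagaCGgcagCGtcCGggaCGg
D130017N08Rik promoter, chr5:143758104-143758403, plus strand: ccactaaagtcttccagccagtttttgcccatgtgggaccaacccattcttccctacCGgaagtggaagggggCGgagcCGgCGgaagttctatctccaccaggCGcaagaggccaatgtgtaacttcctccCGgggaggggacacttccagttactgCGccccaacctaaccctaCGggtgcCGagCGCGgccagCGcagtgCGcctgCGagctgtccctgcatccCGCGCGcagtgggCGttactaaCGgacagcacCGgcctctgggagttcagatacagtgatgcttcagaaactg
The motif CG, which is its own reverse complement, occurs 9 times in the Asic2 window near the chosen island, 16 times in the other, 29 times in the Atf7ip window and 20 times in that of D130017N08Rik. The median over all 32851 RefSeq windows is 7, and 94.6% of them hold at least 1. The Asic2 window near the chosen island has a GC content of 49.7% and the other 65.3%.

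Over the 7 chosen islands the probes had a median GC content of 48.8%, below the 56.7% of all regions, with a range of 45.8% to 56.0%. The density of CG pairs in the probes had a median of 4.40 per 100 bases, against 5.55 over all regions, and ran from 0.56 (D130017N08Rik) to 6.39 (Slitrk1). The chosen islands were shorter, with a median of 421 bases, against 618 over all regions. Of the 7, 4 (57.1%) had a probe in a RefSeq promoter window of any gene, as did 52.6% of all regions. GC content also moved with the arrays: the median of probes with less than 40% GC was 0.052 on the aid-/-, −0.91 on the mbd4-/-, −1.49 on the Gadd45a knockdown and −1.17 on the wild-type ES array, against −0.24 (aid-/-) and −0.97 (mbd4-/-) in liver and −0.33 (aid-/-) and −0.80 (mbd4-/-) in spleen. With each array corrected for probe GC, the median difference of the 7 islands was 2.89.

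The 5 other gene-named regions with the largest gap lay in rank among the chosen islands. They were islands of 3110007F17Rik on the X chromosome (gap 2.00, rank 3), H2-Eb1, a chain of the MHC class II molecule (1.60, rank 4), the microRNA gene Mir10a (1.14, rank 10), Cldn11 (1.08, rank 11) and the glycosyltransferase gene B3gnt3 (0.97, rank 12). The regions at ranks 6 and 7 have no gene name in the array design. H2-Eb1 lay above all chosen islands in mbd4-/- liver (1.96, against at most 1.01) and mbd4-/- spleen (2.11, against at most 1.15). In aid-/- liver it stood at 0.97, against at most 0.84. Its aid-/- spleen value of 0.81 lay within the range of the chosen islands, which reached 1.31. The profiles most like the mean of the 7 chosen islands, by Pearson correlation over the 8 arrays, were those of Arhgap23 (r = 0.99), the interleukin 10 receptor gene Il10ra (0.98), the homeobox gene Prrxl1 (0.98), the neurotensin receptor gene Ntsr1 (0.97) and the gamma-glutamyltransferase family gene Ggt7 (0.97). These had lower ES means, from 1.12 (Arhgap23) to 1.61 (Ntsr1), against tissue means from −0.35 (Prrxl1) to 0.76 (Ggt7). The 8 points of such a correlation share arrays and fall into 2 clusters, so it describes likeness only. Each chosen island correlated with that mean profile, which it is part of, at 0.95 or more.

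The relatives and partners of these genes were read as lists. Outside the chosen islands, 58 regions of 6 lists were tested, and none passed as higher or lower in ES cells than in tissues (limma, adjusted p under 0.05, against 0.243% of all regions). The 58 include the 5 other islands of the member genes, reported above. An unadjusted p under 0.05 was seen at 15 (25.9%), 2 of them among these 5, against 15.9% of all regions. The median difference was −0.17 over 4 regions of the Slitrk family, 0.071 over 6 of the Rbfox splicing factors and 0.63 over 4 of the acid-sensing and epithelial sodium channels. It was 0.12 over 7 regions of the Slc7 transporters and −0.15 over 19 of microfibril and elastic fibre genes. It was −0.21 over 18 regions of a silencing list. That list holds genes of SETDB1 and HUSH silencing, in which Atf7ip acts, and also DNA methylation genes (Dnmt1, Dnmt3a, Dnmt3b and Uhrf1). Over all regions the median was −0.076. In the Slitrk family the differences were 0.26 at Slitrk5 and 0.91 at Slitrk3, both on autosomes. They were −0.61 and −0.77 at Slitrk4 on the X chromosome, so the negative median of that family rests on an X-linked gene. No overlap with ES cells above tissues was seen at 1 region of the Slitrk family, 1 of the channels, 1 of the microfibril genes and 2 of the silencing list. That is 5 of 58 (8.62%), against 4.01% of all regions. No overlap in the opposite direction was seen at 2 regions of the silencing list, which is 3.45% of the 58, against 7.77% of all regions.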

How the data were processed

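Antibody-bound (Cy5) and input (Cy3) DNA of 8 samples was read on 8 arrays of 1 CpG island design. Scanner output as deposited gives intensity values of spots with positions in mm9. Per the file headers, it was made with Agilent Feature Extraction 10.7.3.1 (ES mbd4-/- and Gadd45a knockdown) or 10.9.1.1 (the other 6), and the processed signals are background-subtracted and dye-normalised, per the file headers. The log10 ratio deposited there is Cy5 over Cy3 and was equal to the ratio computed from those signals. A deposited table of values for the series is a score of unstated scale and log base, with array medians from −0.21 to −0.029, which follows the scanner ratio at r = 0.901 to 0.974 over probes; it was multiplied by 1.28 and used as an alternative. The sources used here do not say how the authors made it.

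Of 94687 spots, 5950 controls, 326 probes without a position, 132 outliers and 7174 probes with dim input (not well above background on at least 1 array) were removed, which left 81105. Log2 ratios of bound to input signal were centred on each array's median, with no loess or quantile step, and averaged over regions (15534, of which 13183 had at least 3 probes, a median of 5). Gene names and positions are those of the array design. limma 3.58.1 (R 4.3.3) was fitted to all regions with Benjamini-Hochberg adjustment: ES against the mean of liver and spleen (8 arrays), aid-/- against mbd4-/- (6 arrays, tissue as a block) and liver against spleen (4 arrays, genotype as a block). Each group is 1 array, so arrays of different genotype stand in as replicates, and p-values measure only the spread between these samples. The number of arrays limits the precision. The fit was tested on simulated data. Normexp was run on median signals because 6 of the files hold no mean signals.

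The members, lists and tests were chosen with earlier results of these data known. Named are all regions of the 7 genes, the 5 other gene-named regions with the largest gap, the 5 most like the mean chosen profile, and list members that passed. Cldn11 is also named for its position, chosen after its values were seen. The Slitrk relatives and the DNA methylation genes of the silencing list are named to show what those lists held.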

Additional observations from a re-analysis of the deposited data

Results flagged for a closer look

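Each of the 12 member regions gave a group of 4 ES arrays and a group of 4 tissue arrays, and 2 of these 24 groups held 1 array far from the other 3 by Dixon's criterion. Chance marks about 1 group in 20. At the chosen Rbfox3 island, mbd4-/- liver stood at 0.033, below the other 3 tissue arrays at 0.35 to 0.41. At the chosen Accn1 island, mbd4-/- spleen stood at 0.71, above the other 3 tissue arrays at 0.16 to 0.22. Both arrays remained below every ES array.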

How the results depend on the processing

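The median difference between ES cells and tissues at the 7 chosen islands, 2.61, became 1.68 with normexp background correction and 3.11 within the shared slide, and leaving out 1 array gave 2.38 to 2.87. Joining probes at 1000 bp merged the chosen Rbfox3 island with the next, at 1.11. With genotype added, which leaves the aid-/- and mbd4-/- arrays to make the contrast, 1 of the 5 other islands passed (Rbfox3). None did under the other 22 alternatives. The count of regions higher (9) and lower (23) in ES cells moved with the setting. It was 74 and 373 with arrays set to equal spread, 64 and 337 at 1 plateau, 23 and 107 with the low mode as centre, 2 and 1 with normexp, 58 and 377 in the deposited table, and 22 and 37 with GC correction. It was 5 and 0 with the newer scanner software alone, 652 and 517 with genotype added, 0 and 0 with scan day as a block, and 0 and 0 within the first scan day. ES and tissue arrays share the first scan day alone, so both of these settings give the same differences and are no separate checks. Leaving out 1 array gave 0 to 109 and 0 to 65, with the highest counts without the Gadd45a knockdown. Regions with a gap of at least 1 (11) numbered 7 at equal spread, 4 with normexp, 22 with GC correction, 75 with the newer software alone and 412 within the first day, and 11 to 60 with 1 array left out (22 without wild-type ES cells, 60 without the Gadd45a knockdown). Member regions listed against wild-type ES cells (7 over 3 arrays, the share of probes being taken from the main values) were 3 at equal spread, 2 at 1 plateau, 3 with normexp, 3 in the deposited table and 4 with GC correction. The count for aid-/- against mbd4-/- was 0 to 1072 with 1 array left out, 1072 without either ES array, 1 of them a member (Slitrk1). Liver against spleen gave 156 regions at equal spread, 181 at 1 plateau, 260 centred on the low mode and 95 in the deposited table, none of them a member. The causes were not tested. Leaving out 1 of the 4 tissue arrays was not run for that contrast, as no residual degrees of freedom remain. The within-day and within-slide values and the interaction test were chosen after seeing the data. The labels give no replicate numbers to pair arrays by. The tissue block of aid-/- against mbd4-/- and the genotype block of liver against spleen are part of those fits, and over all 8 arrays without the block both counts remained 0.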
